A study of Mus musculus with 7 samples.

Results

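The semaphorins, plexins, Slits, Robos, netrins and Unc5 receptors are families of guidance ligands and receptors. Their members were taken by gene symbol: Sema3 to Sema7 with a letter, the plexins of classes a to d, Slit1 to Slit3, Robo1 to Robo4, Ntn1, Ntn3, Ntn4 and Unc5a to Unc5d. Of 23284 gene rows, 43 matched and 42 had at least 10 reads over the 7 libraries, namely 20 semaphorins, 9 plexins, 3 Slits, 4 Robos, 2 netrins and 4 Unc5 receptors. The netrin Ntn4 was left out with 3 reads in all, while Sema6c and Slit1 were kept with 16 reads each. RNA came from the atrioventricular canal, the segment of the heart tube between atrium and ventricle in which valve cushions form, of embryos of the outbred NMRI stock. Embryos had 18 to 23 somites per the labels, with an age given as e9.0-e9.25, while the sample titles say day 9.5. The Hand2 null group (4 libraries, labelled Hand2 d/d) carried a germline Cre deletion of the whole Hand2 coding region, so the embryo lacked the gene in every tissue and not only in the heart. The comparison group was wild type (3 libraries, replicates 2 to 4), and each library was 1 pool of 4 canals, with stage and sex ratio matched between pools.

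Slits bind Robo receptors, semaphorins bind plexins, often with a neuropilin as co-receptor, and netrins bind Unc5 receptors, Dcc and neogenin. These cues were first studied as attractants and repellents of growing axons, and they also steer endothelial cells, cardiac neural crest and muscle cells. In the heart, SLIT-ROBO signalling takes part in septum and valve formation, and Sema3c with Plxnd1 and the class a plexins in the septation of the outflow tract. Robo4 and Plxnd1 are enriched in endothelium, and Unc5b is a receptor of endothelial tip cells that can also bind Robo4.

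Libraries held 27905601 to 44860753 reads in genes, and 3 reads, taken as the floor, equalled 0.0669 to 0.1075 CPM, the count per 1e6 reads in genes, for counting error only. Hand2 had 7, 26, 10 and 14 reads in null replicates 1 to 4 and 2123, 1224 and 1194 in wild-type replicates 2 to 4 (log2 fold change -6.74, SE 0.301, edgeR adjusted p = 5.72e-07), so every library matched its label. Null replicate 2 stood apart in its share of reads in no gene (14.21%, with the lowest share at 7.31%) and wild-type replicate 4 in haemoglobin reads (2.181%, against 0.554% to 1.432%). The canal's muscle identity was clear from 8 myocardial markers summing to 30385 to 35506 CPM in the null and 28704 to 32500 CPM in the wild-type pools. Of these 1 was called higher (12.5%, against 4.11% of all genes), Myh7 (993.5 to 1476 against 650.5 to 697.9 CPM, edgeR adjusted p = 0.01), and none lower. Of 7 blood markers tested 1 was called lower (14.3%, against 2.13% of all genes), Klf1. No marker was called among 6 of epicardium and proepicardium. Of 8 cushion mesenchyme markers 5 were called lower in the null (62.5%, against 2.13% of all genes, edgeR): Twist1, Sox9, Snai1, Msx1 and Postn. Prrx2 (log2 fold change -0.37), Cdh11 (-0.3) and Vcan (0.18) were not called. The 5 called markers summed to 52.2 to 71.3 CPM in the null against 107.4 to 249.3 CPM. They were picked by their call, so this gap was built in. The 3 others summed to 344.0 to 512.4 against 351.1 to 440.1 CPM, with overlap. All 8, most of whose reads were Vcan, summed to 398.8 to 583.7 against 524.2 to 600.4 CPM. The neural crest markers Sox10 and Foxd3, the neuronal Dcx, Neurod1 and Isl2, the endodermal Foxa2 and the leukocyte marker Ptprc stayed under 0.5 CPM in every library, but other markers on those lists were higher, such as Epcam (up to 4.88 CPM) and Tfap2a (up to 1.95 CPM). Of 4 immune markers tested 1 was called higher (25.0%, against 4.11% of all genes) and 1 lower (25.0%, against 2.13%). Mrc1 was the higher one (2.09 to 7.14 against 0.573 to 1.59 CPM, edgeR adjusted p = 0.0364). Lyz2 was the lower one (4.60 to 6.70 against 9.96 to 10.4 CPM, adjusted p = 0.0237). Cd68 (log2 fold change -0.01) and Csf1r (0.29) were not called. Of 7 neuronal markers 5 were tested, and 1 was called lower (20.0%, against 2.13% of all genes) and none higher. This was Tubb3 (4.92 ± 0.465 CPM, SD, n = 4, against 22.5 ± 14.2 CPM, SD, n = 3). The 7 markers summed to 19.9 to 22.9 CPM against 26.4 to 61.7 CPM, but without Tubb3 the sums overlapped (15.6 to 17.8 against 14.4 to 23.0 CPM), and Stmn2 was higher in every null pool (6.16 to 7.28 against 4.55 to 5.66 CPM, not called).

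In wild-type canals most of these families were carried by 1 or a few members. Levels between genes are given as CPM per kb of annotated exon. The highest was Unc5b at 12.9 ± 1.15 (SD, n = 3), followed by Robo1 (75.6 ± 18.7 CPM, second once divided by exon length), Plxnd1 at 6.63 ± 1.40, Sema3a at 6.05 ± 0.63 and Ntn1 at 5.72 ± 0.504. Over the wild-type libraries the range of Unc5b (12.1 to 14.2) overlapped that of Robo1 (7.74 to 12.6), and those of Plxnd1 (5.18 to 7.97), Sema3a (5.43 to 6.68) and Ntn1 (5.35 to 6.29) overlapped one another. Sema4b (4.60 ± 0.837) and Plxnb2 (4.49 ± 0.59) completed the 7 members above the median of all genes tested, 4.27 CPM per kb. As the mean share over wild-type libraries, Robo1 made up 91.8 ± 0.327% of the summed Robo level, Unc5b 92.9 ± 2.12% of the Unc5 level, Ntn1 94.4 ± 0.852% of the netrin level and Slit3 73.4 ± 6.12% of the Slit level (SD, n = 3). Plexins were spread more widely, with Plxnd1 at 31.3 ± 2.81%, and Sema3a made up 25.5% of the summed semaphorin means. These shares were computed after the members' values had been seen.

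**Figure D1:**
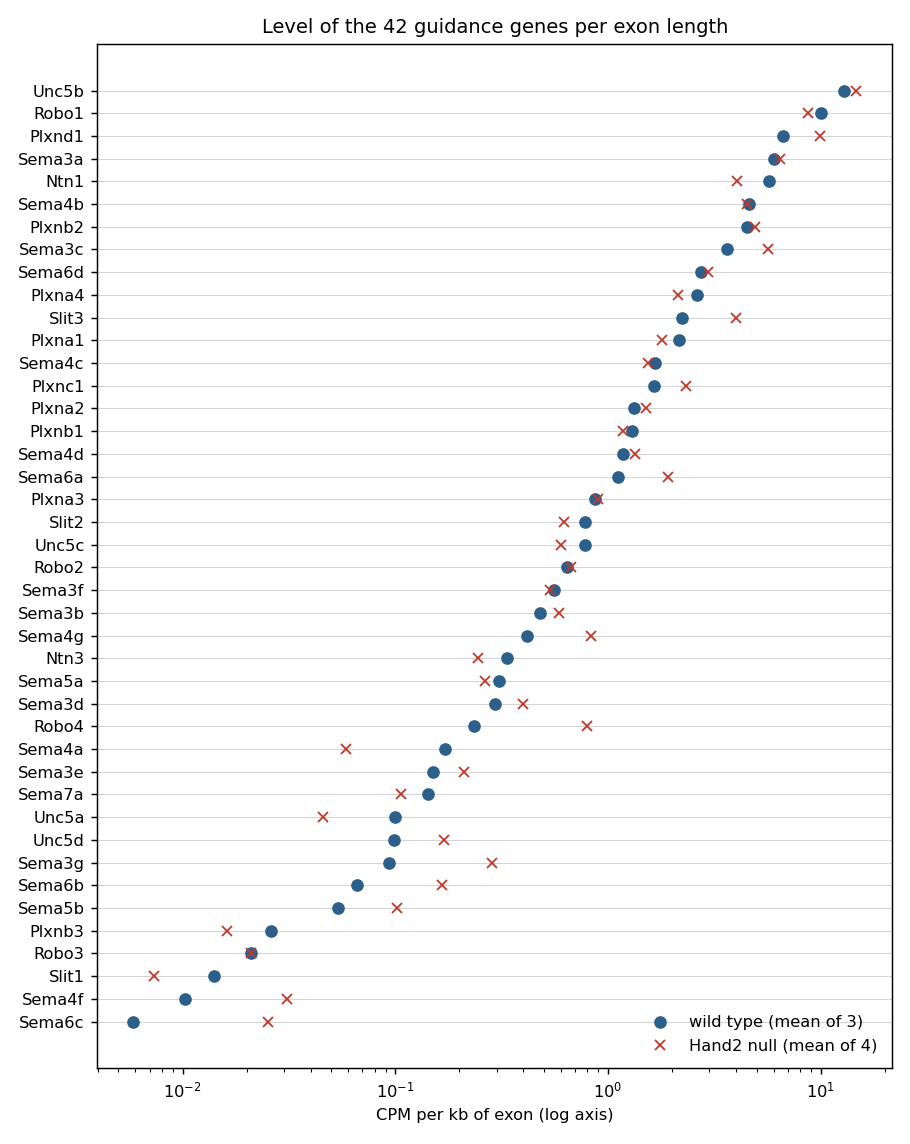
Level of each of the 42 members in CPM per kb of exon (log axis), as the mean of 3 wild-type libraries (filled circles) and of 4 Hand2 null libraries (crosses), ordered by the wild-type mean. Unc5b and Robo1 head the order. The crosses of the called members Robo4, Sema3g and Slit3 lie to the right of their circles, as do those of some low members that were not called or not tested, such as Sema6b and Sema6c.

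The receptor transcript Robo4 and the ligand transcripts Slit3 and Sema3g had a larger share of reads in the Hand2 null than in the wild-type libraries. Robo4 was called with any single library left out, whereas Slit3 and Sema3g each lost the call in several such fits. Robo4 was 3.33-fold, Sema3g 3.03-fold and Slit3 1.75-fold higher. Of the 42 members 36 passed the filter on low counts and were tested, of which 3 were called higher (8.33%) and none lower at an adjusted p under 0.05 (edgeR). Over all 14290 genes tested the shares called were 6.24% in either direction, 4.11% higher and 2.13% lower, so with so few calls the members' shares are not set apart from the background. At an unadjusted p under 0.05 there were 6 members higher and 2 lower, together 22.2%, against 24.4% of all genes. DESeq2 called 4 members higher (these 3 and Sema6a) and none lower. It also called more of all genes, 993 higher and 768 lower, against 587 and 305 with edgeR. The median log2 fold change of the tested members was 0.10, against 0.02 over all genes, and 22 were above and 14 below 0. CPM ranges of null and wild-type libraries did not overlap for 9 of the 36 (25.0%), 7 of them higher and 2 lower, against 21.8% of all genes (11.6% higher and 10.3% lower).

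**Figure D2:**
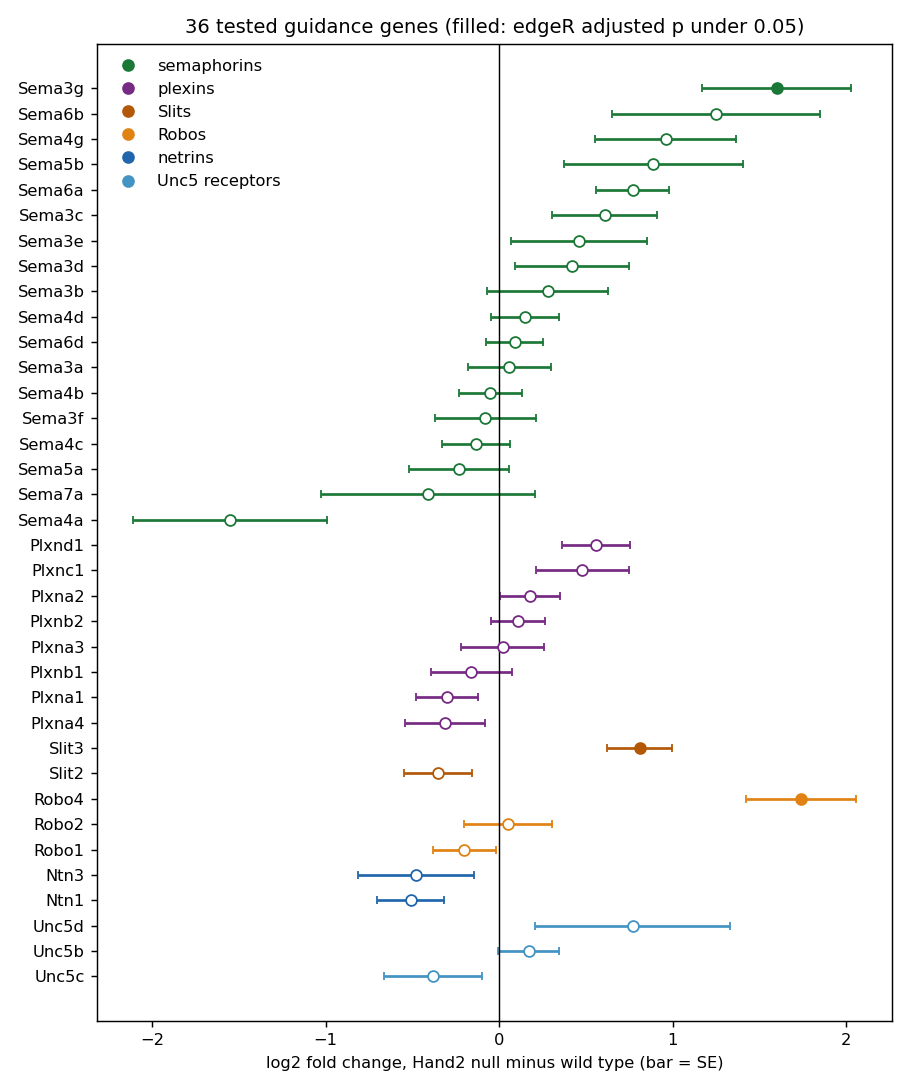
Log2 fold change (Hand2 null minus wild type) of the 36 tested members with its standard error (bars), grouped and coloured by family. Filled circles mark Robo4, Sema3g and Slit3, which passed the threshold of edgeR, and open circles the other members, of which Sema4a has the lowest value at -1.55.

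Robo4 and Sema3g were the called members with the largest fold changes, and the sequence just upstream of their starts is shown because HAND2 is a basic helix-loop-helix protein, a class that binds the E-box CANNTG. Bases run 5′ to 3′ on the plus strand from RefSeq's GRCm38.p6 promoter table, cut before the first annotated exon, with E-boxes in capitals. The Robo4 stretch is chr9:37401722-37401896 (175 bases) and that of Sema3g is chr14:31217623-31217859 (237 bases).
Robo4: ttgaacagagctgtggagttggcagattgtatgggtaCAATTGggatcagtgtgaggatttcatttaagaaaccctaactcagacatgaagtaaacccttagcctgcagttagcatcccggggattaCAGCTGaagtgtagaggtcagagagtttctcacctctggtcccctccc
Sema3g: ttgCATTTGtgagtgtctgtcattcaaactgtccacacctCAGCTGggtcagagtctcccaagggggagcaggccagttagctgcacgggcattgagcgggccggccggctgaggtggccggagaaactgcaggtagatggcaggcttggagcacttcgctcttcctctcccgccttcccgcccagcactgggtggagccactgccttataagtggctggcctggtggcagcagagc
Each stretch holds 2 matches, which begin 213 and 123 bases before the start of Robo4 and 247 and 210 bases before that of Sema3g. In the full 250 bases before the start, CANNTG (its own reverse complement) occurred in 66.2% of 32851 promoters in the table, and in at least 1 promoter of 21 of the 34 members with an entry (61.8%, against 69.3% of 27025 genes). The 250 bases before the RefSeq start of Slit3 held no match, but they lie mostly within an annotated exon and so say little of sequence upstream of the gene. Of 4 other motifs searched on both strands, CATCTG (itself an E-box) was found for 2 of the 34 members (5.9%, against 16.3% of genes), ACGTG for 7 (20.6%, against 18.5%), GATAA for 6 (17.6%, against 25.5%) and CCGGAA for 5 (14.7%, against 13.6%). A match is a description of letters and not of binding, and these data contain no measure of binding.

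Among the Slit and Robo genes, the endothelial receptor Robo4 changed while the main receptor Robo1 was not called. Robo4 had 198, 159, 90 and 120 reads in the 4 null pools, or 5.30, 4.84, 3.14 and 3.08 CPM. In wild-type replicates 2 to 4 it had 67, 28 and 32 reads, or 1.49, 0.969 and 1.15 CPM. Every null library lay above every wild-type library, and null replicates 1 and 2 were the highest. The log2 fold change was 1.74 (SE 0.319, edgeR adjusted p = 0.00838). Robo4 kept its call with each 1 of the 7 libraries left out (1.55 to 1.92, adjusted p = 0.00644 to 0.0473), but not once null pool 2 and wild-type pool 4 were both dropped (1.64, adjusted p = 0.0669).

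Robo1, the widely expressed Slit receptor, was measured at 66.7, 54.3, 73.3 and 70.7 CPM in the null and 72.8, 58.5 and 95.6 CPM in wild-type libraries. The groups overlapped, with the highest value in wild-type replicate 4 (log2 fold change -0.20, SE 0.181, adjusted p = 0.534). Robo2, its near paralog and direct neighbour on chromosome 16, had 6.53, 6.21, 5.23 and 5.80 CPM against 4.64, 4.15 and 8.31 CPM (0.05, SE 0.254). Wild-type replicate 4 was again the highest, and the other wild-type libraries lay below all null ones. That pool also had the highest sum of neuronal markers (61.7 CPM, against 31.2 and 26.4 CPM in the other wild-type pools), of which Tubb3 made up 38.7 CPM. The 5 called cushion mesenchyme markers were highest there too (249.3 CPM, against 129.1 and 107.4 CPM), as was the share of haemoglobin reads (2.181%). The part of these cell types in the Robo values was not tested. Robo3, known from commissural axons and next to Robo4 on chromosome 9, had 0 to 8 reads per library and was not tested. Robo4 thus held 5.64% to 10.7% of the summed Robo CPM per kb in null libraries and 1.62% to 2.79% in wild-type libraries, without overlap, while Robo1 held 81.1% to 88.9% against 91.5% to 92.1%.

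Slit3, a secreted ligand made by muscle and mesenchymal tissues, had 17.0, 25.8, 21.7 and 18.8 CPM in the null and 10.7, 14.1 and 10.4 CPM in wild type. All null values lay above the wild-type values, with null replicate 2 on top (log2 fold change 0.81, SE 0.189, edgeR adjusted p = 0.0279). Slit2, which shares its receptors, was not called, at 5.09, 7.31, 6.52 and 6.11 CPM against 8.11, 6.47 and 8.92 CPM (-0.35, SE 0.196, adjusted p = 0.303). The Slit2 groups overlapped, and 2 of 3 wild-type libraries were above all null ones. Slit3 accordingly made up 85.2% to 87.1% of the Slit CPM per kb in null libraries and 69.0% to 80.4% in wild-type libraries. Slit1, chiefly a ligand of the nervous system, had 0 to 8 reads per library and was not tested. The call of Slit3 was lost without null replicate 1 (0.87, adjusted p = 0.0509), null replicate 2 (0.72, 0.0763), and also when wild-type pool 2 (0.73, 0.154) or 4 (0.71, 0.0779) was dropped. Dropping null pool 2 with wild-type pool 4 had the same outcome (0.63, 0.156).

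**Figure D3:**
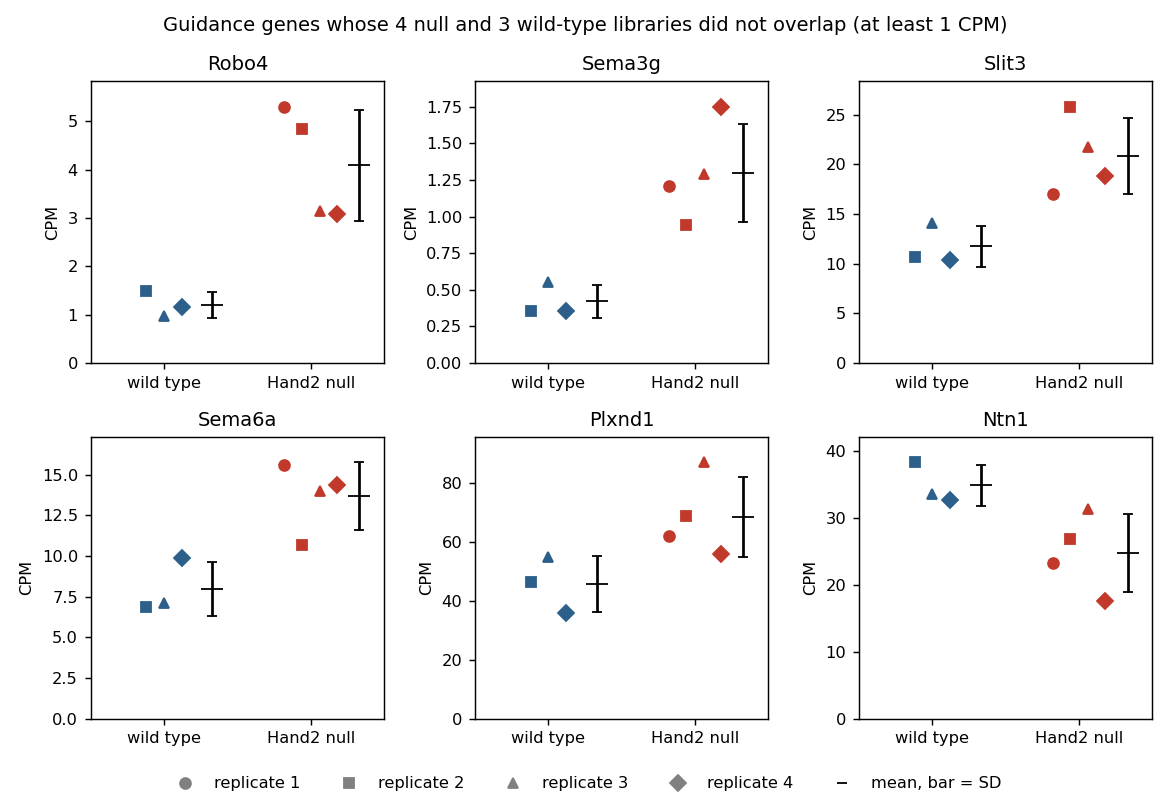
CPM in each library (symbols by replicate number) of 6 members, those reaching a mean of 1 CPM whose null and wild-type ranges did not overlap, with the mean and SD of each group at its right. Robo4, Sema3g and Slit3 passed the threshold of edgeR, while Sema6a, Plxnd1 and Ntn1 did not, and Ntn1 is the one that lay lower in the null.

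Of 18 semaphorins tested 1 was called higher (5.56%, against 4.11% of all genes) and none lower (against 2.13%, edgeR). This was Sema3g, of the secreted class 3 semaphorins, which signal through neuropilins and class a and d plexins. Sema3g, a ligand made by arterial endothelium, had 45, 31, 37 and 68 reads in the null and 16, 16 and 10 in the wild-type pools. In CPM these were 1.21, 0.944, 1.29 and 1.75 against 0.357, 0.553 and 0.358, with no overlap and the highest value in null replicate 4. The 3.03-fold difference (SE 0.428 on the log2 scale) was close to the threshold (edgeR adjusted p = 0.0477). It kept its call without null replicate 3 (adjusted p = 0.0493) and lost it without any other single library: null replicate 1 (1.61, 0.0921), 2 (1.74, 0.0514) or 4 (1.42, 0.0913), or, among wild-type pools, 2 (1.48, 0.204), 3 (1.85, 0.101) or 4 (1.49, 0.106). The call also went with no filter on low counts (adjusted p = 0.0525) and once null pool 2 and wild-type pool 4 were both dropped (0.113).

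Sema3a and Sema3c, the class 3 ligands with the highest levels, were not called. Sema3a, a repellent of axons and neural crest, had 27.7, 37.9, 31.0 and 63.4 CPM in the null and 41.6, 33.8 and 37.6 CPM in wild-type libraries (log2 fold change 0.06, SE 0.239). Sema3c, an attractant of cardiac neural crest, had 20.8, 24.1, 27.4 and 51.8 CPM against 24.6, 21.8 and 13.5 CPM (0.61, SE 0.303, adjusted p = 0.238). For both, null replicate 4 was far above the other null libraries, while the rest overlapped with wild type. The same pool had the highest sum of foregut endoderm markers (9.01 CPM, of which Epcam 4.88, against 1.63 to 5.30 CPM in the other null pools), and their part was not tested. Sema3d, which neighbours Sema3a on chromosome 5, had 1.95 to 3.80 CPM in the null and 1.83 to 2.76 CPM in wild-type libraries (0.42, SE 0.329). Sema3e, the ligand that binds Plxnd1 directly, had 1.03 to 2.27 against 0.86 to 1.23 CPM (0.46, SE 0.393). The neuropilin 2 ligands Sema3b and Sema3f were at 2.19 ± 0.20 and 1.86 ± 0.161 CPM in null (SD, n = 4) and 1.78 ± 0.761 and 1.94 ± 0.368 CPM in wild type (SD, n = 3), with log2 fold changes of 0.28 and -0.08.

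The membrane-bound semaphorins of classes 4 to 7 had no called member (edgeR), and Sema6a came closest. Over all genes 6.24% were called in either direction, and with so few semaphorins tested their lack of calls is not set apart from that share. Sema6a, a transmembrane ligand of class a plexins, was at 15.6, 10.7, 14.0 and 14.4 CPM in the null and 6.89, 7.13 and 9.89 CPM in wild-type libraries. The groups did not overlap, and the nearest values were those of null replicate 2 and wild-type replicate 4. The log2 fold change was 0.77 (SE 0.21, adjusted p = 0.0514, edgeR). It passed with DESeq2 (0.76, adjusted p = 0.0115) and with either other filter on low counts (adjusted p = 0.0487 and 0.0494). It also passed without null replicate 2 (0.89, 0.0388), null pool 3 (0.75, 0.0493) or, on the wild-type side, pool 4 (0.94, 0.0424). Sema6a stayed uncalled when null pool 1 (0.67, 0.139) or 4 (0.74, 0.0759) was dropped. The same held for wild-type pool 2 (0.67, 0.228) or 3 (0.71, 0.204). Neither change of scaling brought a call for Sema6a (adjusted p = 0.0537 for upper-quartile and 0.0554 for RLE). Its paralog Sema6d, which acts in the chick heart through Plxna1, had 20.4, 23.2, 23.0 and 18.3 CPM against 22.6, 19.5 and 16.7 CPM (0.09, SE 0.164). Sema6b was low, at 14 to 30 reads per null and 2 to 18 per wild-type library (1.25, SE 0.599, adjusted p = 0.223), and Sema6c had 0 to 6 reads and was not tested.

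Class 4 semaphorins signal mostly through class b plexins. Sema4b, the most abundant of them per kb, had 17.7, 19.4, 20.8 and 14.5 CPM in the null and 17.8, 15.6 and 22.2 CPM in wild-type libraries, an overlap with no direction (log2 fold change -0.05, SE 0.181). Sema4c and Sema4d, ligands of Plxnb2 and Plxnb1, had values of -0.13 (SE 0.196) and 0.15 (SE 0.197). Sema4g was at 3.77 ± 1.66 CPM in null (SD, n = 4) and 1.89 ± 0.819 CPM in wild type (SD, n = 3), with overlap (0.96, SE 0.408, adjusted p = 0.170). Sema4a, best known from immune cells, had 7, 12, 2 and 7 reads against 27, 22 and 11 reads. Its CPM of 0.0698 to 0.365 (null) and 0.394 to 0.761 (wild type) did not overlap, yet the change was not called (-1.55, SE 0.557, adjusted p = 0.113). Sema4f had 0 to 7 reads and was not tested.

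Sema5a and Sema5b, which carry thrombospondin repeats, had log2 fold changes of -0.23 (SE 0.29) and 0.89 (SE 0.514). Sema5b rested on 7 to 26 reads per library. Sema7a, which is anchored to the membrane by a lipid and binds Plxnc1, had 2 to 22 reads per library (-0.41, SE 0.618).

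Of the 8 plexins tested none was called (edgeR), and 1 had an unadjusted p under 0.05 (12.5%, against 24.4% of all genes), Plxnd1. This endothelial semaphorin receptor was at 62.1, 69.0, 87.2 and 55.9 CPM in the null and 46.5, 55.1 and 35.8 CPM in wild-type libraries. The ranges came within 1 CPM of each other without overlapping, with null replicate 3 the highest (log2 fold change 0.56, SE 0.197, adjusted p = 0.108). Its share of the summed plexin CPM per kb was 36.1% to 43.8% (null) against 28.9% to 34.4% (wild type). Plxnb2, the most abundant class b plexin, had 27.0, 37.5, 31.5 and 33.0 CPM against 30.9, 32.4 and 25.1 CPM, with overlap (0.11, SE 0.154).

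The class a plexins, receptors for class 6 ligands and, with neuropilins, for class 3 ligands, had small values. Plxna1 had -0.30 (SE 0.179), Plxna2 0.18 (SE 0.172), Plxna3 0.02 (SE 0.241) and Plxna4 -0.31 (SE 0.231) on the log2 scale. All overlapped between the groups, and Plxna4, at 27.6 ± 8.21 CPM in null (SD, n = 4) and 33.7 ± 6.55 CPM in wild type (SD, n = 3), had the highest level per kb of this class. Plxnb1 had -0.16 (SE 0.233), and Plxnc1, the Sema7a receptor, had 0.48 (SE 0.268) with 9.63 to 23.3 against 8.86 to 14.0 CPM. Plxnb3 had 0 to 9 reads per library and was not tested.

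Neither netrins nor Unc5 receptors had a called member (edgeR), and 1 of 5 tested had an unadjusted p under 0.05, next to 24.4% of all genes. Ntn1, the main netrin, had 23.2, 26.8, 31.3 and 17.6 CPM in the null and 38.3, 33.6 and 32.6 CPM in wild-type libraries. All null values were below all wild-type values, with null replicate 3 the nearest (log2 fold change -0.51, SE 0.191, adjusted p = 0.127). Without null replicate 3 the value was -0.66 and passed the threshold (edgeR adjusted p = 0.031). With any other single library left out Ntn1 did not pass (-0.57 to -0.38, adjusted p = 0.145 to 0.368). Ntn3 had 0.857, 1.67, 1.26 and 1.16 CPM against 1.54, 1.83 and 1.72 CPM, with overlap (-0.48, SE 0.334), and its annotated exons overlap those of Tbc1d24, so its reads are uncertain.

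Unc5b was at 72.3, 105.3, 101.4 and 66.3 CPM in the null and 83.5, 70.9 and 73.0 CPM in wild-type libraries. The null libraries fell on both sides of the wild-type range (log2 fold change 0.17, SE 0.174). Unc5c, known from axon repulsion, had 4.28, 5.30, 7.43 and 6.34 CPM against 5.80, 5.57 and 11.3 CPM (-0.38, SE 0.283), with the highest value in wild-type replicate 4. Unc5d had 0.70 to 2.16 against 0.43 to 1.80 CPM (0.77, SE 0.562, edgeR adjusted p = 0.435). Its value was 1.72 without wild-type replicate 3 (adjusted p = 0.165) and 0.43 to 1.02 without any other single library. Unc5a had 2 to 8 reads in the null and 7 to 19 in the wild-type pools and was not tested.

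**Figure D4:**
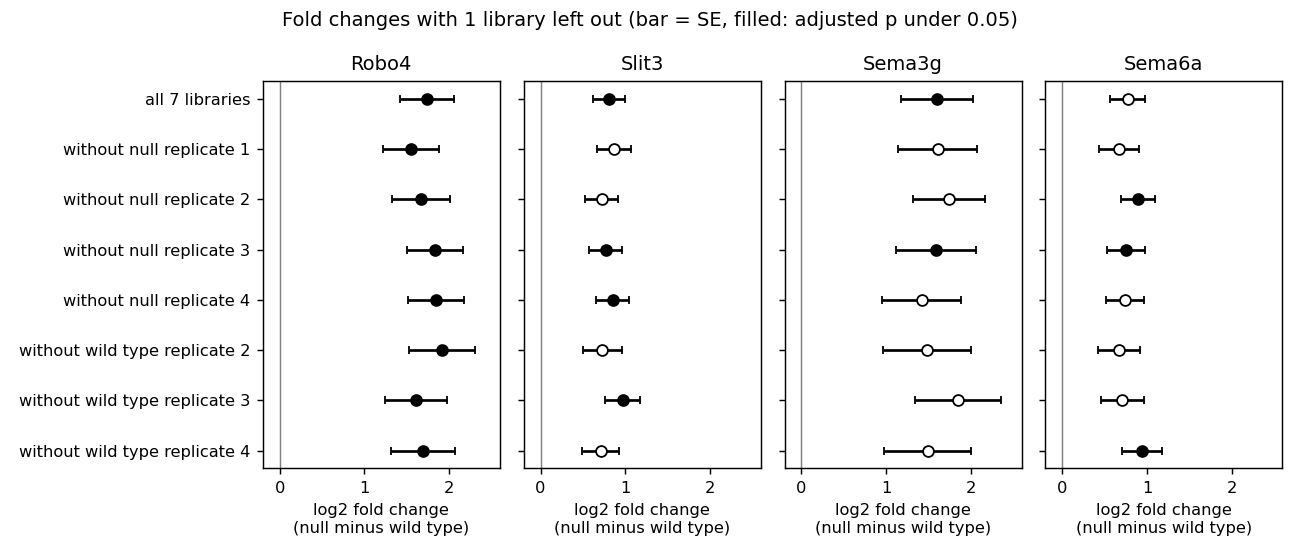
Log2 fold change with its standard error for Robo4, Slit3, Sema3g and Sema6a with all 7 libraries and with each library left out. Filled circles passed an adjusted p under 0.05 (edgeR): Robo4 is filled throughout (1.55 to 1.92), Slit3 and Sema3g lose the call in several fits, and Sema6a gains it in some.

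Co-receptors and signalling partners of these families were read from a list of 64 genes, of which 63 had a row under their symbol and 56 were tested. One was called higher (1.79%, against 4.11% of all genes) and 1 lower (1.79%, against 2.13%), and the median log2 fold change was 0.10, against 0.02. Neuropilin 1 (Nrp1), the co-receptor of Sema3a and of VEGF, was far more abundant per kb than any member, at 74.4 ± 5.39 CPM per kb in null (SD, n = 4) and 68.1 ± 3.28 in wild type (SD, n = 3), and did not pass the test (0.11, SE 0.123, adjusted p = 0.637). Nrp2 (-0.07, SE 0.27) and the netrin receptor neogenin, Neo1 (0.09, SE 0.188), were not called either. The classical netrin receptor Dcc had 3 to 13 reads per library and was not tested.

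The called partners were Dpysl5 and Rnd2. Dpysl5, a member of the collapsin response mediator family that relays semaphorin signals to the cytoskeleton, had 18.1, 19.9, 16.7 and 25.1 CPM in the null and 7.62, 7.23 and 8.17 CPM in wild-type libraries. No null library came near the wild-type range (log2 fold change 1.36, SE 0.18, edgeR adjusted p = 0.0011). Rnd2, a small GTPase that can bind plexins, had 9.64 to 12.7 CPM in the null pools against 35.1, 24.8 and 28.6 CPM. It lay well below wild type in all 4 null libraries (-1.47, SE 0.163, edgeR adjusted p = 0.00044). Both kept their calls with any single library left out. The neuronal marker Tubb3 was lower in the null too (means of 4.92 against 22.5 CPM), while the other neuronal markers overlapped in sum, and their part in the values of Rnd2 and Dpysl5 was not tested.

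Some endothelial markers were also higher in the null. Of 11 such markers 5 were called higher (45.5%, against 4.11% of all genes) and none lower (Pecam1, Tie1, Kdr, Esam and Cldn5), and the median log2 fold change of the list was 0.51. Cldn5 had the largest log2 fold change of the list, 2.11 (SE 0.423). Cdh5 (0.51) and Egfl7 (0.49) did not overlap but were not called, whereas Emcn (0.34), Tek (0.08), the endocardial Nfatc1 (-0.09) and Ramp2 (-0.32) overlapped. The summed level was 572.9 to 653.2 CPM in the null and 395.3 to 467 CPM in the wild-type pools, without overlap. In dissected tissue a larger share of endothelial cells and more RNA per endothelial cell cannot be told apart. The genes set against these markers below were chosen after their values had been seen. Per 1000 CPM of the markers, Robo4 had 8.90, 7.79, 5.48 and 4.72 CPM in the null and 3.20, 2.23 and 2.90 CPM in wild-type libraries. These ratios did not overlap, and the mean was 2.42-fold higher in the null (6.72 ± 1.95, SD, n = 4, against 2.78 ± 0.495, SD, n = 3). The Sema3g ratios were 1.52 to 2.67 against 0.764 to 1.28, also without overlap. A ratio to a sum depends on its markers, and the log2 fold change of Cldn5 (2.11) was above that of Robo4 (1.74). The ratios of Slit3 (28.5 to 41.6 against 22.8 to 32.4), Sema6a (17.3 to 26.1 against 14.7 to 25.0), Plxnd1 (85.6 to 152.2 against 90.6 to 126.9) and Unc5b (101.6 to 177.1 against 163.4 to 184.6) overlapped between the groups. The part of endothelial cells in the values of Robo4, Sema3g, Slit3, Sema6a and Plxnd1 was not tested.

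**Figure D5:**
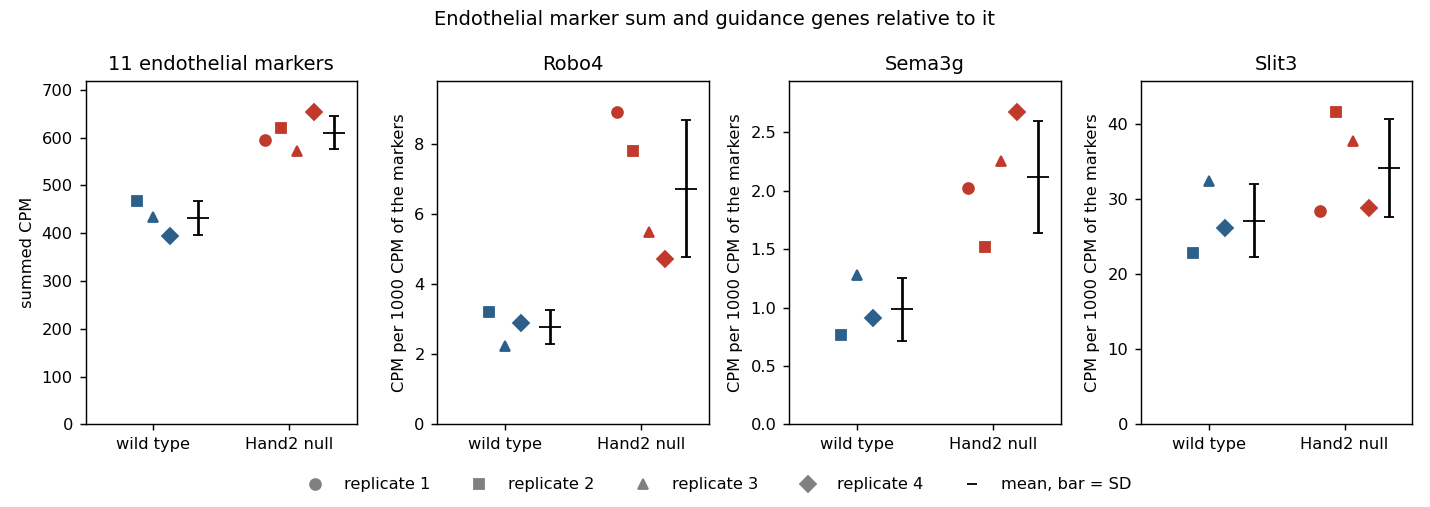
Summed CPM of 11 endothelial markers in each library (first panel), and the CPM of Robo4, Sema3g and Slit3 per 1000 CPM of those markers (other panels), with group mean and SD. The marker sum, Robo4 and Sema3g separate the groups, whereas the Slit3 ratio of wild-type replicate 3 lies among the null libraries.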

How the data were processed

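Total RNA of 7 pools (4 Hand2 null, 3 wild type; RNA integrity of at least 8.5, 30 to 60 ng) was depleted of ribosomal RNA, amplified for 8 PCR cycles and sequenced as unstranded single reads of 50 nt, per the labels' protocols. The deposited values are whole-number read counts per gene symbol, and the authors used TopHat2 2.0.13, HTSeq and SAMtools with mm9, per the submitters' processing notes. The gene annotation and HTSeq settings were not stated in any source used here. The 5 summary lines of each file were left out: reads in no gene made up 7.31% to 14.21%, ambiguous reads 1.46% to 1.69%, and multiply aligned reads 9.08% to 11.64% (null) or 12.22% to 13.81% (wild type). Without strand, a gene and its antisense partner cannot be told apart. Reads without molecular identifiers are not independent molecules. Nothing beyond the pooling of embryos describes how replicates were separated, so p-values measure the spread between these pools.

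CPM is the count divided by the library's gene reads. The test was edgeR 4.0.16 (R 4.3.3): TMM, default filter (minimum count 10), quasi-likelihood F test on genotype over all 7 libraries, Benjamini-Hochberg over 14290 genes. Each SE was obtained from the fold change and its F statistic. Alternatives were DESeq2 1.42.0, RLE and upper-quartile scaling, no or a stricter filter (1 CPM in 3 libraries), the replicate number as a block, and libraries left out. On simulated counts for this comparison (14109 genes, 200 changed), 14% of 1.5-fold, 72% of 2-fold and 100% of 4-fold changes were recovered, and 4 of 147 calls were false. The changed genes were drawn from those with a mean of at least 50 reads. These shares therefore do not cover members with fewer reads, such as Sema3g and Sema4a. Exon lengths came from GENCODE M21 (GRCm38) by symbol and covered all 42 members. No gene coordinates of that build are given for the counts.

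Every kept member is named. Library values are given for called members, for the 2 members of each family with the highest CPM per kb, and for uncalled members of at least 1 CPM whose groups did not overlap; named partners are Nrp1, Nrp2, Dcc, Neo1 and those called. Members, lists and rules were chosen with earlier results of these data known. Family shares, sums over parts of marker lists, ratios to endothelial markers and the choice of genes for them were added after values had been seen. Promoters were searched for 5 motifs, all of which are reported, and the E-box was chosen for display after that search.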

Additional observations from a re-analysis of the deposited data

Results flagged for a closer look

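Sema5b stood out in the null group: null replicate 2 had 0.792 CPM, against 0.348 to 0.411 CPM in the other 3 null libraries, a gap of 0.858 of the group's range, above Dixon's critical value. The value rests on 26 reads, and that library is also the one with 14.21% of its reads outside genes. Chance marks about 1 group in 20 in this way, and 48 genes were examined.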

How the results depend on the processing

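Direction was kept by every called member and partner under all alternatives run. With 1 library left out, members called numbered 1 to 4 higher and 0 to 1 lower (Ntn1, without null replicate 3), partners 1 to 3 higher and 1 to 3 lower, and all genes 210 to 946 higher and 46 to 652 lower (fewest without wild-type replicate 2, most without null replicate 3). Once null pool 2 and wild-type pool 4 were both dropped, 1 member was higher (Sema6a), and 298 and 123 of all genes were higher and lower. DESeq2 called 993 and 768 genes and 3 partners higher. With no filter or a stricter filter, 2 partners were higher (Dpysl5 and Rnd3). Whether library numbers 2 to 4 pair the samples is not settled by the correlations of same-numbered deviations, which were -0.073, 0.257 and 0.166. Numbers 3 and 4 gave the highest values of any null and wild-type pair, while null replicate 2 correlated best with wild-type replicate 4 (0.137). With the replicate block, 4 members were higher (Robo4, Slit3, Sema6a and Plxnd1), Sema3g was not called (1.58, adjusted p = 0.0677), 5 partners were higher and 2 lower, and 814 and 565 of all genes were higher and lower. The cause of these shifts was not tested. Depth limits the 6 untested members and those with under 30 reads per library, such as Sema4a, Sema5b and Sema7a.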
